A study of Homo sapiens with 12 samples.

Results

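Axon guidance genes, 37 in all, were followed across 4 groups of human embryonic stem cell arrays. They are the Eph receptors and their ephrin ligands, the class 3 semaphorins, the SLIT ligands with their ROBO receptors, and netrins 1 and 4. They were chosen by gene symbol alone (37 of 19775 genes measured), each represented by the probe set with a single gene symbol and the highest mean log2 value over all arrays. The 37 were 9 EPHA and 4 EPHB receptors, 5 ephrin-A and 3 ephrin-B ligands, 7 class 3 semaphorins, 3 SLITs, 4 ROBOs and 2 netrins. EPHB2 had no probe set of its own and was not analysed here.

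RNA of H9 cells, an established human embryonic stem cell line used here at passages 28 to 35, was read on 12 arrays, 3 per group. All 4 groups carried a Tet-on construct, which switches on the orphan nuclear receptor GCNF (gene NR6A1), a known repressor of pluripotency genes, in response to doxycycline (Dox). There were undifferentiated cells left untreated (d0), the same kept with Dox at 1 µg/ml over 4 days (d0 with Dox), and cells kept 6 days in medium with 15% serum with either 1 µM retinoic acid (RA) or 1 µg/ml Dox. Cells that received Dox but lack the construct were not analysed here, and the sources used here do not give whether the line is a single clone. Replicates are labelled biological, with nothing on how their cultures were kept apart, and p-values therefore cover only the spread among these arrays.

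Levels are the deposited linear probe set intensities, called signal below. Its median ran from 64.2 to 78.0 over the arrays, and precision is limited by the number of arrays. Stem cell markers matched the undifferentiated label: all 9 measured (NANOG, SOX2 and LIN28A among them) fell in both day 6 groups, to a summed signal of 20056 to 21201 and 21955 to 23124. Probe sets of the targeted gene went both ways between the day 6 groups. All 7 NR6A1 probe sets were higher with Dox at d0. At day 6, 3 were higher and 4 lower in the arrays labelled Dox. The 3 higher ones had log2 fold changes of 0.968, 0.621 and 0.85 with Dox at d0. Of the 4 lower ones, those that rose by 2.326, 1.79 and 3.957 at d0 differed by -1.605, -1.209 and -2.989 at day 6. The remaining one passed in neither comparison. The NR6A1 probe set that rose most with Dox at d0, designed from an mRNA record, read 336 ± 70.9 with the RA label and 29.2 ± 13.7 with the Dox label. CYP26A1, which degrades retinoic acid and is induced by it, read 271 ± 37.0 with the RA label and 29594 ± 1005 with the Dox label. For that reason the day 6 groups are named RA-labelled and Dox-labelled, and directions between them hold as far as the labels do.

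Eph receptors are receptor tyrosine kinases that bind ephrins on neighbouring cells. Ephrin-A ligands are held in the membrane by a lipid anchor and ephrin-B ligands span it, so that both cells of a contact can receive a signal. Class 3 semaphorins and SLITs are secreted proteins, mostly repellent, read by neuropilin-plexin complexes and by ROBO receptors, and netrins attract through DCC or repel through UNC5 receptors. In early embryos these systems also keep cell populations apart and guide neural crest, vessels and mesoderm.

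The promoters of 6 genes on which the results turn are shown first. EPHA4, EPHA7 and EFNA5 rose with Dox at d0, ROBO2 and EFNB2 were higher in the Dox-labelled day 6 arrays, and SEMA3C was lower there and rose over 6 days whatever the label. Each is the 250 bases before the first start listed for the gene in RefSeq (build GRCh38.p14), 5′ to 3′ on the gene's strand, with the GC-box letters GGGCGG on either strand in capitals. EPHA4 lies at chr2:221574203-221574452, minus strand. EPHA7 lies at chr6:93419560-93419809, minus strand. EFNA5 lies at chr5:107670938-107671187, minus strand. ROBO2 lies at chr3:76310630-76310879, plus strand. EFNB2 lies at chr13:106535663-106535912, minus strand. SEMA3C lies at chr7:80922390-80922639, minus strand. Which start each probe set reads was not determined.
EPHA4: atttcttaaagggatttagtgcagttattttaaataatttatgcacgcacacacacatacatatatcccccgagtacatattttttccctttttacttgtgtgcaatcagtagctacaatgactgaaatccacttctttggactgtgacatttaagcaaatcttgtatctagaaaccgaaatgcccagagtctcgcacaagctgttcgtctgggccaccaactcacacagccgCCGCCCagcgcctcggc
EPHA7: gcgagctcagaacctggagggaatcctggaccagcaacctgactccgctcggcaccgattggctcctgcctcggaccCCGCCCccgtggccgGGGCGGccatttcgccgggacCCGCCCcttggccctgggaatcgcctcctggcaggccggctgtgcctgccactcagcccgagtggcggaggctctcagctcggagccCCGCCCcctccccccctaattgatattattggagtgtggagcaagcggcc
EFNA5: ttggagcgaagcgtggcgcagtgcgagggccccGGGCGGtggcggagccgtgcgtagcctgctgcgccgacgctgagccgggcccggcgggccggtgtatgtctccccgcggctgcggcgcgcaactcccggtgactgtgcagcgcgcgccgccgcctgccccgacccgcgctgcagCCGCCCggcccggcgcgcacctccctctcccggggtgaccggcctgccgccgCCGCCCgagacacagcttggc
ROBO2: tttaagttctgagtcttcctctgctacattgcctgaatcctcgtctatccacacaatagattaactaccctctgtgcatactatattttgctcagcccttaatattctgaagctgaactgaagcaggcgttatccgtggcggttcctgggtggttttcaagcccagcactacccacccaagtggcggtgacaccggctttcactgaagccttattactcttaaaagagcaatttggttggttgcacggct
EFNB2: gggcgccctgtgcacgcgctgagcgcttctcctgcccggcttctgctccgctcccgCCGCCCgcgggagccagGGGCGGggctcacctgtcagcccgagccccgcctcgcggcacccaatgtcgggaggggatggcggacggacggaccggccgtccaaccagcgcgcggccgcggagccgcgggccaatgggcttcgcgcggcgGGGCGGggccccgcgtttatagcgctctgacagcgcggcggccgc
SEMA3C: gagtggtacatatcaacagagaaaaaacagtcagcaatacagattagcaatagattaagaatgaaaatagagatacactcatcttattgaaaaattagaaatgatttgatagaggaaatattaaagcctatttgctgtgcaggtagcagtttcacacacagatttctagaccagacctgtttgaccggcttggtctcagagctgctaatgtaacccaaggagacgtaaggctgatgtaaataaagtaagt

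These windows differed widely in CpG content. SEMA3C held 2 CpG dinucleotides, ROBO2 7, EPHA4 9, EPHA7 19, EFNB2 40 and EFNA5 41. In these first-start windows GC boxes numbered 1 in EPHA4, 4 in EPHA7, 3 in EFNA5 and 3 in EFNB2, and neither ROBO2 nor SEMA3C held the letters. EPHA4, ROBO2 and SEMA3C have 2 listed starts and EPHA7 has 3. For each of these genes the letters also stood in the window of another start. RefSeq windows of 33 of the 37 genes were matched, 51 windows in all with a median of 17 CpG, against a median of 17 over 21490 windows of all genes measured. GGGCGG on either strand was in 72.5% of the 51 windows and in 54% of all windows. The extended half-site bound by GCNF, TCAAGGTCA on either strand, was in none of the 51 windows and in 0.237% of all. Its 7 letters AAGGTCA, which lie within it, were likewise in none of the 51 and in 2.82% of all. The retinoic acid response element DR5, on either strand, was in none of the 51 and in 0.0558% of all. These counts say only which letters stand in these windows.

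A gene is said to have risen or fallen where its adjusted p in limma, over all 19775 genes, was under 0.05. The test ran on log2(signal + 16), a scale that understates changes of dim genes, and log2 fold changes are given ± SE. Signals are given as mean ± SD. Each group holds n = 3 arrays. With quantile normalization or median centring no called direction among the 37 turned.

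With Dox in undifferentiated cells, every guidance gene that passed the test rose. EPHA4, a receptor that binds both ephrin classes, rose most (log2 fold change 2.52 ± 0.13, adjusted p = 3.38e-06). The ephrin EFNA5 rose by 1.04 ± 0.07 and the receptor EPHA7 by 0.94 ± 0.18. Of 37 genes 10 rose and 0 fell (27.0% called), where 7.75% of all genes rose and 5.16% fell (12.9% called in all). With each array centred on its median, 10 of the 37 rose and 0 fell, and of all genes 1134 rose and 1482 fell, against 1532 and 1020 as deposited. At an unadjusted p under 0.05 in limma, 14 were higher and 0 lower, against 3013 and 2193 of all 19775 genes. The 3 arrays of each group did not overlap for 16 of the 37, against 31.5% of all genes, and 2 rose at least 2-fold, against 1.85% of all genes that changed so much either way. The median log2 fold change was 0.25 against 0.03 for all genes. Of the 37, 20 lay at or above the median gene's mean, and in a fit of the 9888 such genes alone 10 of these 20 were called, against 32.9% of all. Fitted on the 6 d0 arrays alone, 6 of the 37 rose, and of all genes 891 rose and 631 fell.

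A mark of RNA quality and several marker lists differed in this comparison too. The 3′ over 5′ signal ratio of ACTB was 3.08 to 3.34 at d0 and 3.85 to 3.87 with Dox. The summed signal of 9 neural crest markers went from 7167 to 7346 at d0 to between 12783 and 13346 with Dox. Of the 9, 4 rose, EDNRB among them, and SOX10 and FOXD3 did not pass (-0.06 and -0.55). Retinoic acid response genes summed to 5455 to 5949 and 8877 to 9297 (5 of 7 rose), and 9 stem cell markers to 115349 to 122599 and 103948 to 106924 (1 rose and 3 fell). The summed signal of 9 endothelial markers was 2840 to 2918 at d0 and 2611 to 3076 with Dox; TEK (1.67) and VWF (1.16) rose and KDR (-0.87) fell. That of 12 neuronal and neural progenitor markers was 14659 to 16317 and 14828 to 14969; MAP2 (1.65), DCX and NES rose and TUBB3 fell. Of 10 mesenchymal and 8 endoderm markers 0 rose and 1 fell each, and of 7 trophoblast and amnion markers 1 rose and 0 fell. The part of any of these in the guidance gene results was not tested.

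Between the day 6 groups the genes divided. The day 6 comparison asks how cells given Dox and cells given RA differed after 6 days. ROBO2, a SLIT receptor, was 15.4-fold higher in the Dox-labelled arrays (log2 fold change 3.95 ± 0.20, adjusted p = 5.68e-07). The ligands EFNB2, SLIT2 and SEMA3D and the receptor EPHA4 were also more than 2-fold higher there, and the semaphorins SEMA3C and SEMA3F more than 2-fold lower. Of 37 genes 11 rose and 4 fell (40.5% called), where 13.7% of all genes rose and 12.2% fell (25.9% called). With median centring 9 of the 37 rose and 4 fell, and of all genes 2156 rose and 3291 fell, against 2713 and 2407 as deposited. Among genes at or above the median mean, fitted alone, 12 of 20 were called against 49.9% of all. The groups did not overlap for 18 of the 37, against 41.6% of all genes, and 7 differed at least 2-fold, against 5.79%. The median log2 fold change was 0.12. Marker lists differed between these groups as well. Of 9 neural crest markers 4 rose and 1 fell, of 12 neuronal and neural progenitor markers 4 rose and 0 fell, of 10 mesenchymal markers 4 rose and 2 fell, of 9 endothelial markers 1 rose and 1 fell, of 8 endoderm markers 1 rose and 1 fell, of 7 trophoblast and amnion markers 3 rose and 0 fell, of 9 stem cell markers 3 rose and 4 fell, and of 7 retinoic acid response genes all 7 rose. Summed neural crest markers were 4591 to 4866 with the RA label and 8962 to 9274 with the Dox label, mesenchymal markers 81910 to 93834 and 101039 to 104677, neuronal and neural progenitor markers 26936 to 29466 and 33871 to 34772, endothelial markers 2314 to 2437 and 1840 to 2019, endoderm markers 2923 to 5878 and 10001 to 12244, trophoblast and amnion markers 5169 to 5653 and 11413 to 11975, and retinoic acid response genes 3145 to 3621 and 56453 to 59569. The endothelial genes CLDN5 and VWF lay around the pseudocount in both. The ACTB ratio was 2.41 to 2.92 and 2.29 to 2.40. Their part in the results was not tested, and in bulk samples fewer cells of a type and less RNA per cell cannot be told apart.

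Over 6 days in serum medium most of the guidance genes changed, in both directions. Medium, day and treatment differ together between these groups and cannot be told apart. By the labels, the RA-labelled cells had RA and their d0 reference had none. Dox is listed for longer in the Dox-labelled cells than in d0 with Dox. No day 6 group in serum medium without RA or Dox was among the arrays. The changes over 6 days therefore cannot be credited to serum and time alone. EPHA1 fell most with either label, and EFNA1, EPHA2, EPHB3, NTN4 and SEMA3C rose. Against d0, 11 of 37 rose and 11 fell in the RA-labelled arrays, called the RA arm below (59.5% called), where 25.3% of all genes rose and 25.2% fell (50.5% called). Against d0 with Dox, 10 rose and 14 fell in the Dox-labelled arrays, called the Dox arm (64.9% called), where 22.2% of all genes rose and 23.9% fell (46.1% called). In the RA arm 24 of the 37 did not overlap (56.3% of all genes) and 13 changed at least 2-fold (21.3%), and in the Dox arm 25 did not overlap (55.7%) and 14 changed at least 2-fold (17.3%). Among the brighter genes fitted alone the shares called were 17 of 20 against 79% and 19 of 20 against 72.6%. In the RA arm the ACTB ratio was 3.08 to 3.34 at d0 and 2.41 to 2.92 at day 6. In the Dox arm it was 3.85 to 3.87 and 2.29 to 2.40. Of 10 mesenchymal markers 8 rose and 1 fell in the RA arm, and 9 rose and 1 fell in the Dox arm. Of 9 neural crest markers 5 rose and 3 fell, and 4 rose and 4 fell. Of 12 neuronal and neural progenitor markers 4 rose and 3 fell, and 6 rose and 3 fell. The part of these in the guidance gene results was not tested. The arms share no arrays. The sources used here do not give whether the Dox-labelled cells had Dox before the 6 days. Of the 37, 7 rose in both, 9 fell in both, and 3 went opposite ways, EFNA2 and EFNA5 rising in the RA arm and falling in the Dox arm and ROBO2 the reverse. The shares of all genes that did so were not counted here. Which genes these are rests on the day 6 labels, since each day 6 group has its own reference.

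**Figure D1:**
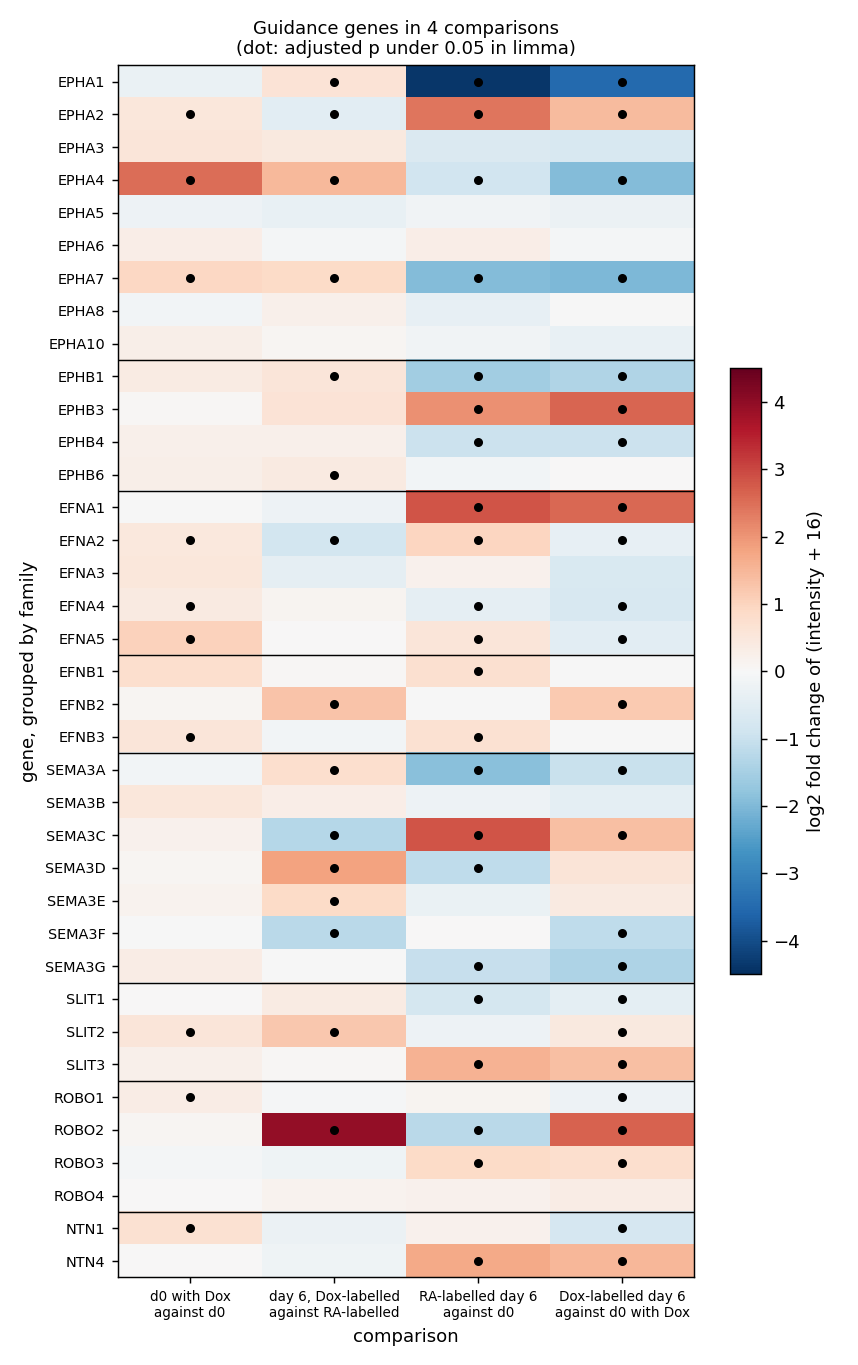
Log2 fold change of (intensity + 16) for the 37 guidance genes, grouped by family (rows), in the 4 comparisons (columns); red is higher, blue lower, and a dot marks an adjusted p under 0.05 in limma. In d0 with Dox against d0 every dotted cell is a rise (10 genes), while the columns against day 0 hold 11 rises and 11 falls and 10 rises and 14 falls.

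Among the EPHA receptors, EPHA4 rose most with Dox. Its signal was 423, 460.5 and 416 at d0 and 2646, 2613 and 2432 with Dox. At day 6 it was 269, 257 and 177 with the RA label and 619.5, 703 and 649.8 with the Dox label. The 3 Dox-treated d0 arrays stood above all other 9, and no 2 groups overlapped. The rise with Dox was 5.75-fold, the day 6 difference 2.73-fold (log2 1.45 ± 0.13, adjusted p = 3.6e-05), and over 6 days EPHA4 fell in both arms (log2 -0.86 and -1.94). Of 4 other EPHA4 probe sets, 3 were called in the same direction in all 4 comparisons, and the remaining one lay near 3 in every group.

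EPHA7, a receptor of developing brain, was likewise highest with Dox at d0 and lowest with the RA label. It read 757, 747 and 745 at d0 and 1444, 1503 and 1401 with Dox, then 243, 194 and 122 with the RA label and 360.5, 319 and 353 with the Dox label. No group overlapped another. It rose with Dox at d0 (0.94 ± 0.18, adjusted p = 0.00839) and was higher in the Dox-labelled arrays at day 6 (0.88 ± 0.18, adjusted p = 0.00558). Over 6 days it fell in both arms (-1.97 and -2.03), as did all its other probe sets. Another EPHA7 probe set also passed with Dox at d0 and between the day 6 groups (0.62 and 0.59). The remaining ones passed in neither, at 0.21 and 0.35 with Dox at d0 and 0.42 and 0.47 at day 6.

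EPHA1, a receptor of epithelia, was low in both day 6 groups. Its signal was 2933, 2639 and 3106 at d0 and 2349, 2421 and 2335 with Dox, and the Dox difference did not pass (-0.28, adjusted p = 0.193) although the arrays did not overlap. It was 104, 121 and 145 with the RA label and 226, 188 and 169 with the Dox label. Over 6 days the log2 fold changes were -4.39 ± 0.13 and -3.51 ± 0.13, the largest falls among the 37 in both arms (adjusted p = 2.49e-09 and 1.33e-08). The Dox-labelled arrays were higher than the RA-labelled ones (0.60 ± 0.13, adjusted p = 0.00647), a call lost with the mean of its 3 probe sets (0.31, adjusted p = 0.223).

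EPHA2, a receptor of epithelia and of early embryonic cells, went the other way from EPHA1. It stood at 806, 837 and 978 at d0, 1216, 1139.7 and 1413 with Dox, 4723, 4498 and 4971 with the RA label and 3293, 3327 and 3654 with the Dox label. The RA-labelled arrays were the highest of the 12. It rose with Dox at d0 (0.52 ± 0.10, adjusted p = 0.00937; adjusted p = 0.0654 on the 6 arrays alone) and over 6 days by 2.42 ± 0.10 and 1.44 ± 0.10. It was lower in the Dox-labelled than in the RA-labelled arrays (-0.47 ± 0.10, adjusted p = 0.00772).

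The other 5 EPHA receptors were dim. Group means of EPHA3, EPHA5, EPHA6 and EPHA10 lay between 3.67 and 36.5, around the pseudocount, and none passed in any of the 4 comparisons. EPHA8 was not called on the probe set used (57.7 at d0 and 44.8 to 50.6 at day 6). Its other probe set read 138.7 at d0, 134.9 with Dox, 7.0 RA-labelled and 11.3 Dox-labelled, a fall in both arms (log2 -2.74 and -2.38). That probe set has the higher mean on the linear scale, so the result for EPHA8 depends on the scale of the mean by which 1 probe set was kept; of the 37, only EPHA8 and EPHA10 would be represented by another probe set.

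Of the 4 EPHB receptors measured, EPHB1 and EPHB4 fell and EPHB3 rose over 6 days. EPHB1, a receptor of neurons and vessels, read 345, 347 and 373 at d0, 489.6, 453 and 437 with Dox, 135, 105 and 92.8 RA-labelled and 142, 180.1 and 189 Dox-labelled. The Dox-treated d0 arrays were the highest of the 12, but the difference from d0 did not pass (0.36, adjusted p = 0.112). Its falls were -1.56 ± 0.13, adjusted p = 3.38e-06 and -1.36 ± 0.13, adjusted p = 1.28e-05, and the day 6 groups differed by 0.56 ± 0.13, adjusted p = 0.0112 (adjusted p = 0.0639 on those 6 arrays alone).

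EPHB3, a receptor of intestinal and other epithelia, was uneven at d0, with 77.5, 91.7 and 26.1 untreated and 34.1, 155 and 40.1 with Dox. At day 6 it was 312, 323 and 263 with the RA label and 427, 457 and 513 with the Dox label. Every day 6 array stood above every d0 array, and the rises were 2.06 ± 0.46, adjusted p = 0.00341 and 2.62 ± 0.46, adjusted p = 0.000881. The day 6 groups did not overlap, but their difference did not pass over all 12 arrays (0.61, adjusted p = 0.396); it passed on the 6 arrays alone (adjusted p = 0.016).

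EPHB4, the receptor of EFNB2 in veins, fell from 1757 ± 183 to 885 ± 53.9 with the RA label (-0.97 ± 0.13, adjusted p = 0.000112) and from 2054 ± 218 to 1053 ± 167 with the Dox label (-0.96 ± 0.13, adjusted p = 0.000154). EPHB6, whose kinase domain is inactive, was nearly level, at 190.1 ± 24.6, 229 ± 22.1, 172 ± 19.7 and 232 ± 9.44 in the order of groups used above. It was higher in the Dox-labelled than in the RA-labelled arrays (0.40, adjusted p = 0.0222). That call was lost with median centring (adjusted p = 0.0549) and without replicate 1 or 2 of either day 6 group (adjusted p of 0.0573 to 0.0768).

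**Figure D2:**
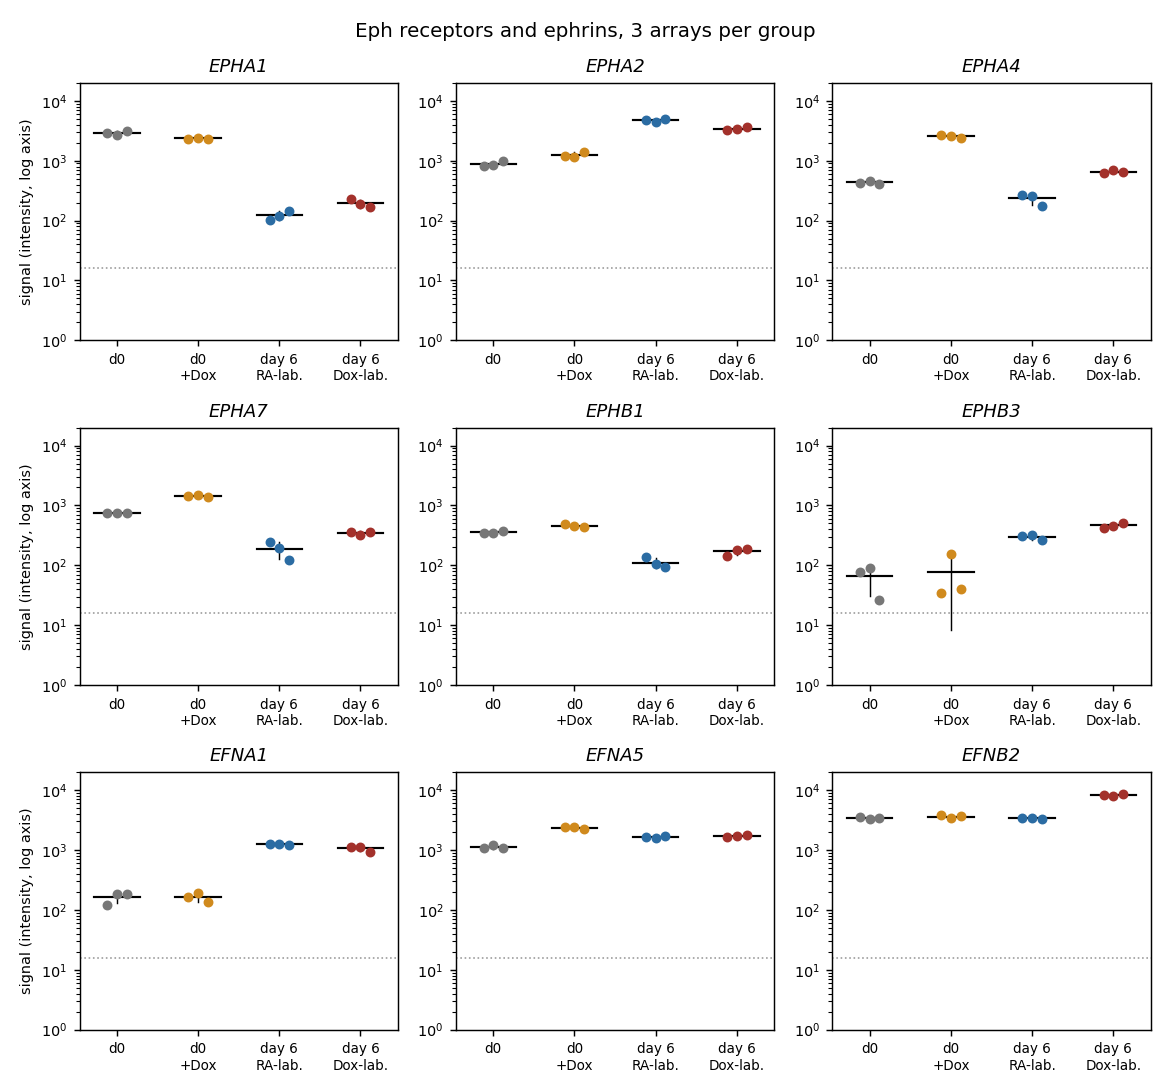
Signal (intensity, log axis) of 9 Eph receptors and ephrins on each array (points) in the 4 groups, with the group mean (horizontal bar) and SD (vertical line); the dotted line is the pseudocount of 16. EPHA4, EPHA7 and EFNA5 are highest in d0 with Dox, EPHA1 is low in both day 6 groups, EFNA1 is high in both, and EFNB2 is highest in the Dox-labelled arrays.

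The ephrin-A ligands rose with Dox at d0 in 3 of 5 cases, where 7.75% of all genes rose. EFNA5, a ligand of EPHA receptors in brain maps, read 1103, 1226 and 1079 at d0 and 2399, 2392 and 2274 with Dox, then 1627, 1619 and 1735 and 1633, 1691 and 1769.9 with the RA and Dox labels. The Dox-treated d0 arrays stood highest and the untreated ones lowest. It rose 2.06-fold with Dox (1.04 ± 0.07, adjusted p = 1.76e-05) and 2 of its 3 other probe sets rose as well (1.10 and 0.99). The day 6 groups overlapped (0.03, adjusted p = 0.805). From these different starting levels EFNA5 rose in the RA arm (0.54 ± 0.07, adjusted p = 8.96e-05) and fell in the Dox arm (-0.47 ± 0.07, adjusted p = 0.000318). The RA-arm rise was lost with the mean of its probe sets (0.22, adjusted p = 0.0623), of which the dimmest fell (-0.65).

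EFNA1, the ligand of EPHA2, rose with it over 6 days. It was 122, 187 and 187 at d0 and 166, 189 and 137 with Dox, and 1268, 1267 and 1196 and 1134, 1137 and 941 at day 6 with the RA and Dox labels. Day 6 arrays were all above d0 arrays, by 2.82 ± 0.16, adjusted p = 1.98e-07 and 2.60 ± 0.16, adjusted p = 5.39e-07. The RA-labelled arrays were the highest of the 12, but the difference between the day 6 groups did not pass (-0.22, adjusted p = 0.392), nor did that with Dox at d0 (adjusted p = 0.997).

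EFNA2 rose with Dox at d0 from 1280.2 ± 86.3 to 1794 ± 251 (0.47, adjusted p = 0.0141; 0.0839 on the 6 arrays alone). It stood at 2486 ± 70.9 with the RA label and 1396 ± 92.3 with the Dox label (-0.83 ± 0.10, adjusted p = 0.000252), a rise over 6 days in the RA arm (0.95) and a small fall in the Dox arm (-0.35, adjusted p = 0.0175). The last was lost without replicate 3 of d0 with Dox (-0.24, adjusted p = 0.0582) and without replicate 3 of the Dox-labelled arrays (-0.31, adjusted p = 0.0645). All its calls were lost with the mean of its 3 probe sets, the other 2 of which lay under 20 in every group. EFNA4 rose with Dox at d0 from 704 ± 20.2 to 944 ± 46.7 (0.41, adjusted p = 0.0107) and fell over 6 days to 528 ± 57.6 and 571 ± 18.6 (-0.41 and -0.71). EFNA3 (73.4, 115, 88.2 and 74.5) passed nowhere.

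Among the ephrin-B ligands EFNB2, a marker of arteries and a ligand of EPHB4, was level in 3 groups and high in the fourth. It read 3524, 3299 and 3487 at d0, 3804, 3425 and 3654 with Dox, 3391, 3414 and 3346 RA-labelled and 8315, 8133 and 8478 Dox-labelled. The 3 Dox-labelled day 6 arrays stood above all other 9, which lay close together. EFNB2 was 2.45-fold higher in the Dox-labelled than in the RA-labelled arrays (1.29 ± 0.06, adjusted p = 5.02e-07) and rose by 1.19 ± 0.06, adjusted p = 1.61e-07 over d0 with Dox. In d0 with Dox against d0 and RA-labelled against d0 the differences were 0.08, adjusted p = 0.498 and -0.02, adjusted p = 0.816. Its second probe set went the same way (log2 1.62 between the day 6 groups).

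EFNB3, an ephrin of neurons, rose with Dox at d0 from 800.4 ± 64.2 to 1172 ± 140.1 (0.54, adjusted p = 0.00485; adjusted p = 0.0527 on the 6 arrays alone) and stood at 1282 ± 55.5 and 1165 ± 25.3 at day 6, a rise over d0 in the RA arm (0.67, adjusted p = 0.000147). Both calls were lost with the mean of its 2 probe sets (adjusted p = 0.154 and 0.0799). EFNB1 was dim, at 51.9 ± 18.5, 97.8 ± 21.2, 93.1 ± 8.74 and 98.4 ± 32.1. Its rise in the RA arm (0.71, adjusted p = 0.0248) was lost without replicate 2 or 3 of d0 or replicate 1 or 2 of the RA-labelled arrays (adjusted p of 0.0588 to 0.0866). Its difference with Dox at d0 (0.76, adjusted p = 0.0577) passed without replicate 1 of d0 (adjusted p = 0.0262) or without replicate 3 of the Dox-labelled day 6 arrays (adjusted p = 0.0347).

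Class 3 semaphorins did not pass with Dox at d0 (0 of 7 in limma, 1 higher and 0 lower at an unadjusted p under 0.05), while 5 of 7 differed between the day 6 groups. Of all genes 12.9% were called with Dox at d0 and 25.9% between the day 6 groups. SEMA3C, which guides neural crest and outflow tract cells, read 957, 959.8 and 805 at d0 and 1024, 1026 and 1035 with Dox, 6479.8, 6468 and 6595 with the RA label and 2701, 2504 and 2784 with the Dox label. Day 6 arrays were all above d0 arrays and the RA-labelled ones the highest. It rose by 2.83 ± 0.08, adjusted p = 2.01e-09 in the RA arm and 1.36 ± 0.08, adjusted p = 3.39e-07 in the Dox arm, and was lower in the Dox-labelled than in the RA-labelled arrays (-1.29 ± 0.08, adjusted p = 2.58e-06). Its second probe set was called in the same direction in these 3 comparisons.

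SEMA3F, a repellent read by neuropilin 2, was level in 3 groups and low in the fourth. It was 3014, 3333 and 3299.6 at d0, 3165, 3085 and 3205 with Dox, 2994, 3418 and 3404 RA-labelled and 1456, 1447 and 1339 Dox-labelled. The Dox-labelled arrays lay below all other 9. The difference between the day 6 groups was -1.20 ± 0.08, adjusted p = 2.94e-06, and over 6 days SEMA3F fell in the Dox arm (-1.15, adjusted p = 8.02e-07). In the RA arm the change was 0.02, adjusted p = 0.836; the mean of its 3 probe sets fell there (-0.29, adjusted p = 0.0199), so that direction depends on the probe sets.

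SEMA3A, a repellent read by neuropilin 1, fell over 6 days in both arms. Its signal was 2965, 2833 and 2561 at d0 and 2396, 2525 and 2657 with Dox, against 785, 753 and 698 and 1280.4, 1219 and 1272 with the RA and Dox labels. It fell 3.68-fold (adjusted p = 2.2e-08) and 2-fold (adjusted p = 2.71e-06). The Dox-labelled arrays were higher than the RA-labelled ones (0.74 ± 0.08, adjusted p = 8.41e-05), a call lost with the mean of its probe sets (0.33, adjusted p = 0.0556).

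SEMA3D, expressed by neural crest and mesoderm, was dim. It read 40.2, 42.5 and 55.0 at d0, 68.6, 41.0 and 43.5 with Dox, 1.45, 19.0 and 20.1 RA-labelled and 119, 97.4 and 47.1 Dox-labelled. The day 6 groups did not overlap, the RA-labelled arrays lying around the pseudocount (1.82 ± 0.34, adjusted p = 0.00295). Its fall in the RA arm (-1.13, adjusted p = 0.0167) was lost without replicate 3 of d0 (-1.03, adjusted p = 0.0563) or replicate 1 of the RA-labelled arrays (-0.79, adjusted p = 0.0583). In the Dox arm it did not pass (0.58, adjusted p = 0.197) but did without replicate 3 of the Dox-labelled arrays (adjusted p = 0.0443) and with the mean of its 2 probe sets (adjusted p = 0.0223).

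SEMA3G, a semaphorin of vessels, read 179, 145 and 153 at d0, 204, 195 and 218 with Dox, 59.1, 76.7 and 71.5 RA-labelled and 89.3, 38.1 and 88.2 Dox-labelled. Both day 6 groups lay below both d0 groups (-1.04 ± 0.23, adjusted p = 0.00284 and -1.40 ± 0.23, adjusted p = 0.000486) and overlapped each other. SEMA3E, which binds PLXND1 directly, was 38.2 ± 11.3 with the RA label and 82.1 ± 22.7 with the Dox label (0.85, adjusted p = 0.0326). That call was lost with median centring, on the 6 arrays alone, and without replicate 1 or 2 of either day 6 group (adjusted p of 0.0522 to 0.115). SEMA3B lay at 4.69 to 18.7 and passed nowhere; 1 further probe set shared by SEMA3B and a microRNA gene was not used.

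**Figure D3:**
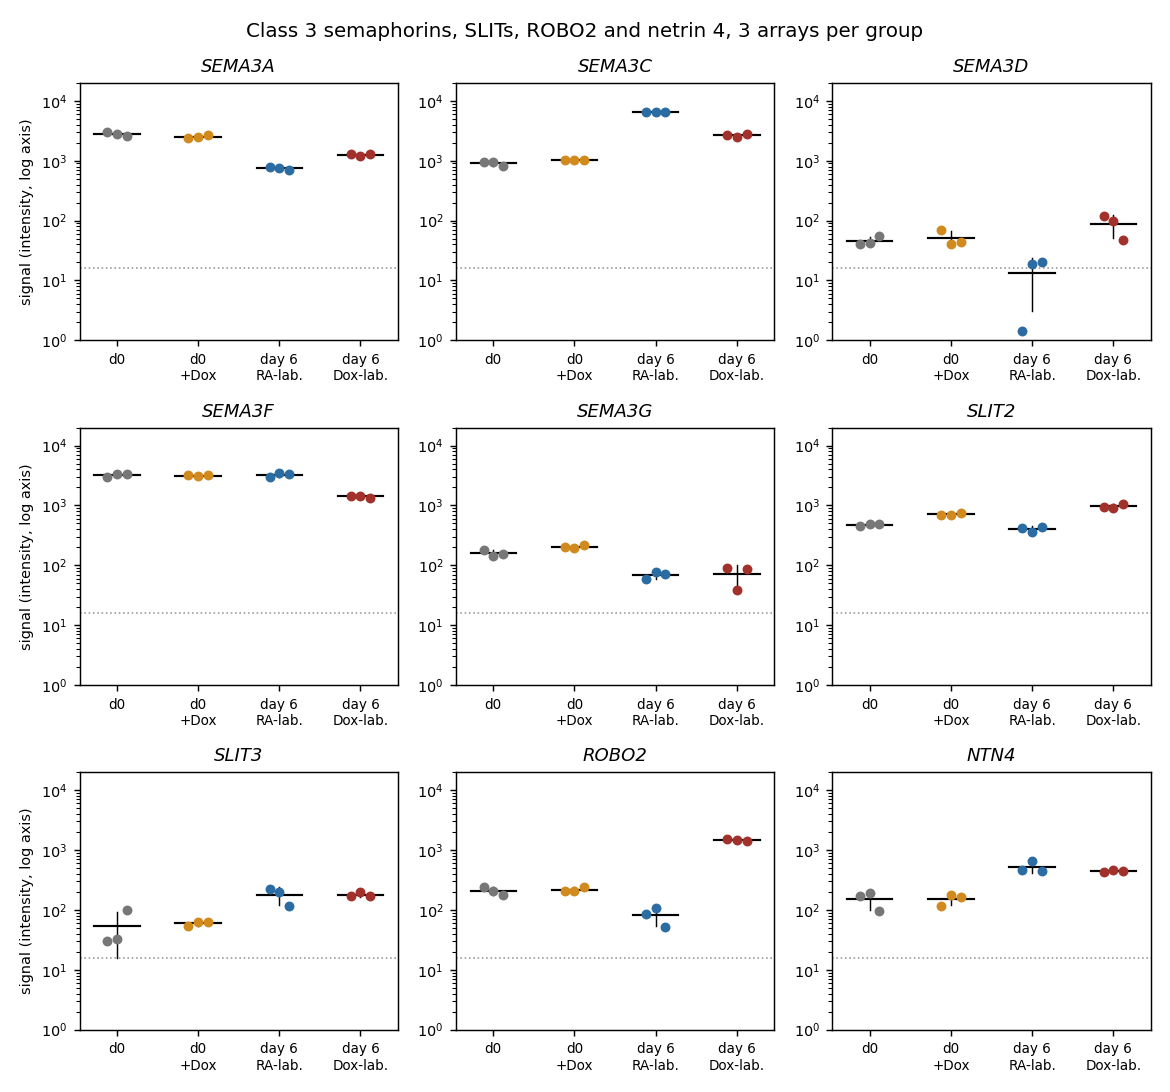
Signal (intensity, log axis) of 5 class 3 semaphorins, 2 SLITs, ROBO2 and NTN4 on each array (points) in the 4 groups, with the group mean (horizontal bar) and SD (vertical line, drawn no lower than 1); the dotted line is the pseudocount of 16. ROBO2 spans the widest range between the day 6 groups, and SEMA3F is low only in the Dox-labelled arrays.

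The receptors of class 3 semaphorins rose over 6 days in most cases. Of 7 measured neuropilins, A-type plexins and PLXND1, 6 rose and 0 fell in the RA arm (6 and 0 at an unadjusted p under 0.05), and 5 rose and 2 fell in the Dox arm (85.7% and 100% called, against 50.5% and 46.1% of all genes). NRP2, a receptor of SEMA3F and SEMA3C, went from 508 ± 46.6 to 1984 ± 66.6 in the RA arm (1.93, adjusted p = 9.95e-08) and from 638 ± 80.4 to 5449 ± 273 in the Dox arm (3.07, adjusted p = 7.07e-09). NRP1 stood at 156 ± 41.4 with the RA label and 805 ± 109 with the Dox label (2.28, adjusted p = 7.06e-06). In the Dox-labelled arrays both neuropilins were higher and SEMA3C and SEMA3F lower than in the RA-labelled ones. PLXNA3 rose in the RA arm (2.07) and was lower in the Dox-labelled arrays (-1.13), as was PLXNA1 (-0.72); in the Dox arm PLXNA4 (-1.38) and PLXNA1 (-0.78) fell. With Dox at d0, 3 of the 7 rose and 0 fell (5 and 0 at an unadjusted p under 0.05), led by PLXNA2 (0.82) and NRP1 (0.80). That is 42.9% called, beside 12.9% of all genes.

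Semaphorins of other classes and the B- and C-type plexins changed both ways over 6 days. Of 17 measured, 4 rose and 0 fell with Dox at d0 (8 and 2 at an unadjusted p under 0.05), 3 rose and 4 fell between the day 6 groups, 3 rose and 7 fell in the RA arm, and 3 rose and 8 fell in the Dox arm. These are 23.5%, 41.2%, 58.8% and 64.7% called, beside 12.9%, 25.9%, 50.5% and 46.1% of all genes. SEMA6A, a transmembrane semaphorin, fell from 10543 ± 581 to 1054 ± 50.2 in the RA arm (-3.30) and from 8931 ± 348 to 1195 ± 68.0 in the Dox arm (-2.89). SEMA5B fell with it (-3.22 and -2.99). SEMA6D, of the same class as SEMA6A, rose with Dox at d0 from 398 ± 75.6 to 871 ± 42.2 (1.11, adjusted p = 0.000819) and was 12.2-fold higher in the Dox-labelled arrays (3.61, adjusted p = 1.25e-07). PLXNC1, a receptor of SEMA7A, rose with Dox at d0 (1.15) and in the RA arm (1.97) and was lower in the Dox-labelled arrays (-1.41).

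SLIT2 and its receptor ROBO2 were both higher in the Dox-labelled arrays. ROBO2 read 240.4, 207 and 176 at d0, 207, 207 and 243 with Dox, 85.9, 109 and 52.2 with the RA label and 1521, 1448 and 1394 with the Dox label. The Dox-labelled arrays stood above all other 9 and the RA-labelled ones below all others, so it fell in the RA arm (-1.22 ± 0.20, adjusted p = 0.000368) and rose in the Dox arm (2.65 ± 0.20, adjusted p = 1.68e-06). Both other ROBO2 probe sets were higher in the Dox-labelled than in the RA-labelled arrays (log2 2.84 and 2.40), but neither passed in the RA arm (-0.29 and -0.76).

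SLIT2, a repellent ligand, read 460.2, 481 and 492 at d0, 691, 679 and 759.7 with Dox, 421, 366 and 438 RA-labelled and 943, 892 and 1075 Dox-labelled. No group overlapped another. It rose with Dox at d0 (0.56 ± 0.09, adjusted p = 0.00402), was higher in the Dox-labelled than in the RA-labelled arrays (1.22 ± 0.09, adjusted p = 1.03e-05) and rose in the Dox arm (0.44, adjusted p = 0.00301). In the RA arm the difference did not pass (-0.22, adjusted p = 0.0741), while the mean of its probe sets fell (-0.31, adjusted p = 0.0106).

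SLIT3 rose over 6 days in both arms on the probe set used. It was 30.8, 33.0 and 97.9 at d0, 53.9, 61.9 and 63.5 with Dox, 228, 197 and 115 RA-labelled and 168, 199 and 171 Dox-labelled. The day 6 groups overlapped and stood above the d0 groups (1.57 ± 0.33, adjusted p = 0.0023 and 1.37 ± 0.33, adjusted p = 0.00604). Neither of its other probe sets passed in either arm; the brighter of them gave 0.39 (adjusted p = 0.535) and 1.07 (adjusted p = 0.0727) by limma. SLIT1, expressed mainly in the nervous system, fell from 146 ± 9.19 to 79.0 ± 14.7 in the RA arm (-0.78, adjusted p = 0.000379) and from 149 ± 11.5 to 105 ± 13.6 in the Dox arm (-0.45, adjusted p = 0.0137); the latter was lost without replicate 2 of the Dox-labelled arrays (-0.38, adjusted p = 0.0549) and with the mean of its probe sets (adjusted p = 0.292).

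Of the other ROBO receptors, ROBO1 was bright in every group, at 9208 ± 482, 11483 ± 412, 9978 ± 509.7 and 9704 ± 204. It rose slightly with Dox at d0 (0.32, adjusted p = 0.0131) and fell slightly in the Dox arm (-0.24, adjusted p = 0.0144), both calls being lost without replicate 1 of d0 with Dox (adjusted p = 0.0517 and 0.0515). ROBO3, which modulates SLIT responses at the midline, rose over 6 days, from 403 ± 25.5 to 746 ± 75.6 (0.86, adjusted p = 5.96e-05) and from 377 ± 47.8 to 648 ± 19.1 (0.77, adjusted p = 0.000173). ROBO4, the endothelial member, lay at 55.7 to 74.1 and passed nowhere on the probe set used. Its other probe set rose in the RA arm, from 15.5 to 68.9 (log2 1.47).

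The 2 netrins differed. NTN4, a netrin of basement membranes, read 169.8, 195 and 94.3 at d0, 118, 180.1 and 161 with Dox, 463, 644 and 452 RA-labelled and 434, 473 and 439.6 Dox-labelled. Every day 6 array was above every d0 array (1.70 ± 0.24, adjusted p = 0.000164 and 1.48 ± 0.24, adjusted p = 0.000536), and the day 6 groups overlapped. NTN1, the midline attractant, was dim and highest with Dox at d0, going from 84.9 ± 11.1 to 144 ± 13.2 (0.67, adjusted p = 0.0189) and to 101 ± 20.1 and 80.3 ± 16.8 at day 6. The rise was lost without replicate 1 of d0 or replicate 2 or 3 of d0 with Dox (adjusted p of 0.0577 to 0.0711). In the Dox arm NTN1 fell (-0.75, adjusted p = 0.00254). Calls of NTN1 were lost with the mean of its 3 probe sets (adjusted p = 0.147 with Dox at d0 and 0.109 in the Dox arm).

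Netrin receptors and related midline genes changed both ways. UNC5D, a repulsive netrin receptor, fell from 2719 ± 85.9 to 193 ± 40.0 in the RA arm (-3.72, adjusted p = 1.04e-08) and from 1861 ± 67.8 to 279 ± 43.3 in the Dox arm (-2.68, adjusted p = 1.36e-07). UNC5C, of the same family, rose (1.92 and 1.19). Of 14 measured, 5 rose and 1 fell with Dox at d0, 3 and 1 between the day 6 groups, 3 and 5 in the RA arm, and 3 and 6 in the Dox arm. Among 26 intracellular signalling genes the counts were 5 and 3, 8 and 3, 14 and 4, and 12 and 6. In the same order 42.9%, 28.6%, 57.1% and 64.3% of the 14 and 30.8%, 42.3%, 69.2% and 69.2% of the 26 were called, beside the 12.9%, 25.9%, 50.5% and 46.1% of all genes. MICAL2, an enzyme that oxidises actin, rose most, from 351 ± 29.2 to 6295 ± 1490.4 (4.08) and from 193 ± 12.8 to 8567 ± 521 (5.36). CHN1, a Rac regulator acting below EPHA4, rose with Dox at d0 from 1444 ± 132 to 3112 ± 75.7 (1.10, adjusted p = 6.08e-05) and fell in the Dox arm (-0.73). DPYSL3 and DPYSL5, of the collapsin response mediator family, were higher in the Dox-labelled arrays (1.36 and 2.35).

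The difference between the arms was tested directly, as the change in the Dox arm minus the change in the RA arm. Of 37 genes 15 passed, 6 more positive and 9 more negative in the Dox arm (40.5%), where 11.7% and 12.5% of all genes did (24.2%). Which genes pass, and the sizes, signs and order of these differences, rest on the day 6 labels. Among ligands the difference was -1.30, adjusted p = 0.000186 for EFNA2, 1.22 ± 0.09, adjusted p = 1.19e-05 for EFNB2, -1.47 ± 0.11, adjusted p = 1.62e-05 for SEMA3C and 1.72, adjusted p = 0.0253 for SEMA3D. For the receptor ROBO2 it was 3.87 ± 0.28, adjusted p = 1.04e-05. For EPHA4 and EFNA5 the difference (-1.07 ± 0.19 and -1.01 ± 0.10) equals the day 6 difference less the rise with Dox at d0, which was the larger of the pair. EFNA1, NTN4, SLIT3, EPHB3 and EPHB4 gave differences of -0.22 ± 0.23, -0.22 ± 0.34, -0.20 ± 0.46, 0.55 ± 0.65 and 0.01 ± 0.19 in turn, none past the threshold. The call for SEMA3D was lost with a pseudocount of 1 (adjusted p = 0.0812), with the replicate number as a block (0.053) and without replicate 3 of d0, replicate 2 or 3 of d0 with Dox, or replicate 1 or 2 of the Dox-labelled arrays (adjusted p of 0.0568 to 0.0598). ROBO1, which also passed (-0.36, adjusted p = 0.0224), was lost without replicate 1 or 2 of d0 with Dox, replicate 1 of the RA-labelled or replicate 1 or 2 of the Dox-labelled arrays (adjusted p of 0.0505 to 0.0547). After averaging each gene's probe sets EFNA2, EFNB3, EPHA1 and NTN1 no longer passed (adjusted p = 0.632, 0.109, 0.238 and 0.0645).

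**Figure D4:**
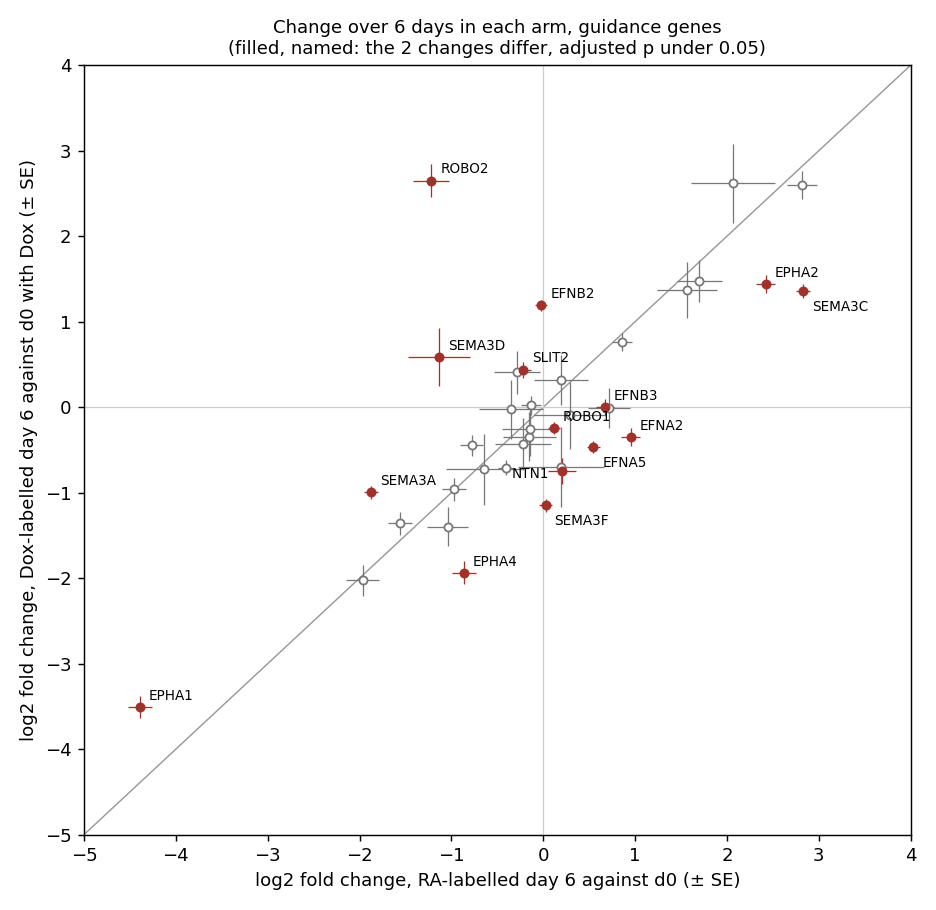
Log2 fold change ± SE of the 37 guidance genes over 6 days, RA-labelled against d0 (x axis) and Dox-labelled against d0 with Dox (y axis); the diagonal marks equal change, and filled, named points are the 15 genes whose 2 changes differ at an adjusted p under 0.05 in limma. With the day 6 labels as given ROBO2 lies above the diagonal and SEMA3C below it, and EPHA1 is low in both.

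Placed by their highest group, an order looked at after the values were seen, 15 of the 37 had their highest mean in d0 with Dox, against 24% of all genes. Another 9 were highest with the RA label, 9 with the Dox label and 4 at d0, against 27.4%, 22.6% and 26% of all genes. Among the 15, EPHA3, EPHA6, EPHA10 and SEMA3B had means of only 18.7 to 28.8 there, near the pseudocount of 16. For 8 of the 37, all within the 15, the 3 Dox-treated d0 arrays stood above all other 9. These were EFNA4, EFNA5, EPHA4, EPHA7, EPHB1, NTN1, ROBO1 and SEMA3G. Of all genes 5.42% showed this, or 1071 of the 4749 that were highest in d0 with Dox. In all, 29 of the 37 (78.4%) were called in at least 1 of the 4 comparisons, against 62.1% of all genes. The other 8 were EFNA3, EPHA3, EPHA5, EPHA6, EPHA8, EPHA10, ROBO4 and SEMA3B, of which EPHA8 and ROBO4 had another probe set that passed. Where a called gene had other probe sets of its own symbol, these had the same sign in 15 of 17, 20 of 24, 23 of 28 and 29 of 33 cases in the order of comparisons above, and 1 was called in the opposite direction (EFNA5 in the RA arm).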

How the data were processed

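Total RNA of 12 cultures was hybridised to Affymetrix human arrays, 3 per group by the samples' titles and characteristics. The authors deposited 1 linear intensity per probe set. Every array's mean intensity, leaving out the top and bottom 2%, was 500, and the summarising software and background correction are not given in the sources used here. Of 54675 probe sets 41097 had 1 gene symbol, 1801 several and 11777 none listed; 41043 symbols were updated by gene ID. Each of 19775 genes kept its probe set with the highest mean of log2(intensity + 16). The values were tested as log2(intensity + 16), computed here from the deposited intensities, with limma 3.58.1 (R 4.3.3; lmFit and eBayes, 1 mean per group over all 12 arrays, 8 residual degrees of freedom) and Benjamini-Hochberg adjustment over all genes at 0.05. The fit was tested on simulated data of these genes for d0 with Dox against d0 (19775 genes). Of 50 genes changed 1.5-fold 34 were recovered, of 50 changed 2-fold 44, and of 50 changed 4-fold 50. Of 50 changed 1.25-fold 2 were recovered, and there were 10 false calls among the unchanged genes. The changed genes were all drawn from those at or above the median gene's mean. Recovery was therefore not measured for dimmer genes, and these rates cannot be read as the sensitivity for dim members.

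The members and lists were chosen with earlier results of these data known. Values in every array are given for members past the threshold by at least a log2 change of 1 with groups that do not overlap, up to the 6 largest each way per comparison, and list genes by up to the 2 largest each way. Promoters are RefSeq windows of GRCh38.p14. Alternatives were quantile normalization, median centring, a pseudocount of 1, only genes at or above the median mean, averaging the probe sets of each gene, fitting only the 6 arrays compared, a block for replicate number, each array left out and, chosen after seeing the data, the probe set with the highest linear mean. No 2 arrays held identical values.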

Additional observations from a re-analysis of the deposited data

Results flagged for a closer look

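For 15 genes the change over 6 days differed between the Dox-labelled and RA-labelled arms by limma's test of the difference itself, the reason they are listed; differences are on the log2 scale, the Dox arm minus the RA arm. Those more positive in the Dox arm were ROBO2 (3.87), SEMA3D (1.72), EFNB2 (1.22), SEMA3A (0.88), EPHA1 (0.88) and SLIT2 (0.66). Those more negative were SEMA3C (-1.47), EFNA2 (-1.30), SEMA3F (-1.17), EPHA4 (-1.07), EFNA5 (-1.01), EPHA2 (-0.98), NTN1 (-0.95), EFNB3 (-0.67) and ROBO1 (-0.36). Which genes are listed, and the size, direction and order of these differences, rest on the day 6 labels.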

How the results depend on the processing

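The counts of guidance genes called stayed within 1.5 times the reported ones under every alternative run except one: on the 6 arrays alone 6 rose with Dox at d0. With Dox at d0, 967 of all genes rose after averaging each gene's probe sets, and on the 6 arrays alone 891 rose and 631 fell. SEMA3F in the RA arm turned from 0.02 to -0.29 (adjusted p = 0.0199) with the mean of its probe sets. Leaving out each array in turn, guidance genes that rose and fell numbered 9 to 11 and 0 with Dox at d0, 9 to 12 and 4 between the day 6 groups, 10 to 11 and 10 to 11 in the RA arm, 10 to 11 and 13 to 15 in the Dox arm, and 5 to 6 and 8 to 10 for the difference of changes. Of all genes, 1060 to 1455 rose and 692 to 991 fell with Dox at d0, 2174 to 2767 and 1869 to 2449 between the day 6 groups, 4669 to 4961 and 4603 to 4939 in the RA arm, 4004 to 4426 and 4264 to 4772 in the Dox arm, and 1926 to 2246 and 2088 to 2394 for the difference of changes. Besides the gains of EFNB1 with Dox at d0 and SEMA3D in the Dox arm given with those genes, calls gained that way, in adjusted p, were EPHA3 in the RA arm without replicate 3 of d0 (0.0368) and in the Dox arm without replicate 1 of the Dox-labelled arrays (0.0354), EFNA3 and SEMA3B in the Dox arm without replicate 2 of them (0.0464 and 0.0241), SLIT1 between the day 6 groups without replicate 3 of the RA-labelled arrays (0.0256), and for the difference of changes EFNA4 without replicate 2 of the RA-labelled arrays (0.0214) and EFNB1 without replicate 3 of the Dox-labelled arrays (0.0465).

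Replicate numbers did not pair the samples, since deviations of same-numbered arrays correlated at -0.008 to 0.048. With the replicate block 10 guidance genes rose and 0 fell with Dox at d0, 12 and 4 between the day 6 groups, 11 and 12 in the RA arm, 10 and 14 in the Dox arm, and 5 and 9 for the difference. Only 20 of the 37 were at or above the median gene's mean, so low signal limits the other 17. With the probe set of the highest linear mean, an alternative chosen after seeing the data, EPHA8 was called in both arms (-2.74 and -2.38, adjusted p = 1.72e-05 and 6.26e-05) and no call of the 37 was lost. The cause of these changes was not tested.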
